A study of Mus musculus with 16 samples.

Results

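The vacuolar ATPase (V-ATPase) genes described here are 10 of the 24972 genes in the deposited bulk RNA-seq files: Atp6v0c, its pseudogene copy Atp6v0c-ps2, and the 8 subunit genes Atp6v0a1, Atp6v0b, Atp6v0d1, Atp6v1a, Atp6v1b2, Atp6v1d, Atp6v1e1 and Atp6v1h. They were taken by symbol from each of 16 libraries, and all 10 were present in every file. The libraries came from microdissected CA1, CA3 and dentate gyrus (DG) of the dorsal hippocampus of 6 adult ArcCreERT2::eYFPflx mice on a C57BL/6 background, so trained and untrained animals carry the same inducible Cre under control of the Arc promoter and the same floxed reporter. Trained mice (3 animals) learned to avoid a shock zone on a rotating arena in the active place avoidance task. Untrained mice (3 animals) were placed on the same arena with the shock off. Tissue was collected after a retention test without shock, and the pieces of each subregion of an animal were pooled. Each training group has 3 libraries in each subregion, except that untrained CA3 and untrained DG have 2.

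The V-ATPase is a rotary proton pump. Its cytosolic V1 sector hydrolyses ATP and turns a central shaft, and its membrane V0 sector moves protons into the lumen of lysosomes, endosomes and secretory vesicles. In nerve terminals the resulting gradient drives the loading of synaptic vesicles with neurotransmitter. Atp6v0c encodes the proteolipid of the proton-carrying ring, and Atp6v0b a further ring proteolipid. Atp6v0a1 encodes the neuronal form of the large V0 subunit a, and Atp6v0d1 the V0 subunit at the base of the shaft. Atp6v1a and Atp6v1b2 encode the subunits of the ATP-hydrolysing head, Atp6v1d a part of the shaft, Atp6v1e1 a part of the outer stalk, and Atp6v1h a regulatory subunit that couples V1 to V0.

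Atp6v0c and Atp6v0c-ps2 are shown first, because reads from them are hard to tell apart. In GRCm38 (GENCODE), Atp6v0c lies on the minus strand at chr17:24163866-24169702 and its longest transcript has 3 exons and 1183 bases. Atp6v0c-ps2 lies on the plus strand at chr6:37806086-37806550 and is annotated as a processed pseudogene of 1 exon and 465 bases. The pseudogene model matches the coding sequence of Atp6v0c without its stop codon at all but 1 of 465 bases, an identity of 99.78%. The substitution is T111C, with the base of Atp6v0c first and the position counted from the A of the start codon. It lies at position 37806196 of chromosome 6 in the pseudogene. The stretch around it, chr6:37806156-37806236 in the pseudogene, is shown for both with the differing base in capitals:
Atp6v0c: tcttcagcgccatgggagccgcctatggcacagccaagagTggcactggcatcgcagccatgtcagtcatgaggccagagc
Atp6v0c-ps2: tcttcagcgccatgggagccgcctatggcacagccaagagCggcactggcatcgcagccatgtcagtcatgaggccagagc
Of the 435 words of 31 bases in the pseudogene model, 404 (92.9%) also occur in transcripts of Atp6v0c. The remaining 31 words all span the differing base. Conversely, 404 of the 1153 such words of the longest Atp6v0c transcript occur in the pseudogene. Because a quantifier must divide reads between them, the sum of their values is given beside each.

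Before the results, facts on the libraries themselves are needed. Each value is a normalized estimated count as deposited, with sums between 7607326 and 7984931 per library, so that sequencing depth is unknown and no counting interval can be given. The number of genes listed at 0 was 7567 to 9759 in 7 libraries (trained CA1 replicates 1 to 3, trained CA3 replicates 1 and 2, and untrained DG replicates 1 and 3) and 3124 to 5944 in the other 9. Xist, the transcript that silences an X chromosome in female cells, had values of 7601 to 19592 in the 9 trained libraries and of at most 52.4 in 6 of the 7 untrained ones, although the study's methods place animals of both sexes in each training group. The exception was the CA3 library of untrained replicate 1, with an Xist value of 10588 and a Ddx3y value of 201. The CA1 library of what is by the labels the same animal had an Xist value of 26.1. The trained DG library of replicate 3 also held both kinds of transcript, with an Xist value of 7601 and a Ddx3y value of 255, the highest Ddx3y value of the 9 trained libraries, followed by 101 in trained CA1 replicate 3. Training and sex-linked transcripts therefore separate nearly the same libraries and cannot be told apart in CA1 and DG. The libraries with many genes at 0 were all of the trained and none of the untrained libraries in CA1, and the reverse in DG. This state, too, cannot be told apart from training in CA1 and DG. Markers of CA1 pyramidal neurons (Wfs1, Fibcd1, Pou3f1, Mpped1) summed to 3079 to 4998 in untrained CA1 and 1528 to 1943 in trained CA1, a range that overlaps that of DG (1295 to 2010). Markers of DG granule cells (Prox1, Dsp, C1ql2, Lct, Trpc6, Tdo2) summed to 7523 to 8074 in trained and 9187 to 9659 in untrained DG, to 8213 to 8313 in trained and 7154 to 8760 in untrained CA1, and to 6312 to 9202 in trained and 8934 to 10872 in untrained CA3. They were higher in DG than in CA1 among the untrained libraries only, and did not set DG apart from CA3. Markers of CA3 pyramidal neurons (Iyd, Grik4, Bok, Coch) summed to 946.5 to 1187 in trained and 587 to 843 in untrained CA3. In DG they summed to 903 to 1049 in trained and 819 to 823 in untrained libraries, so they did not set CA3 apart from DG. Bulk values cannot tell fewer cells of a type from less RNA per cell. Because the libraries differ in their genes at 0, directions also depend on scaling: when each library was rescaled by the upper quartile of its own values above 0, the median log2 fold change of all genes between trained and untrained libraries shifted by -0.47 in CA1, -0.23 in CA3, 0.40 in DG and -0.13 over the 3 subregions. That rescaling is named below as the rescaling to values above 0, and was kept as an added alternative after its values were seen.

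The levels of Atp6v0c and Atp6v0c-ps2 were divided differently in trained and untrained libraries. In untrained CA1, the normalized estimated count of Atp6v0c was 1226, 1222 and 1741 in replicates 1, 2 and 3, and that of Atp6v0c-ps2 was 1587, 1114 and 1471. In trained CA1, Atp6v0c was at 3734, 3810 and 2379 in replicates 1, 2 and 3, while Atp6v0c-ps2 was listed at 0 in replicates 1 and 2 and at 1400 in replicate 3. The trained Atp6v0c values all lay above the untrained ones, and the lowest of them was the library in which the pseudogene was above 0. In CA3, untrained replicates 1 and 2 had Atp6v0c values of 1942 and 2020 and Atp6v0c-ps2 values of 1338 and 1700. The 3 trained CA3 libraries had Atp6v0c values of 4116, 4556 and 4737, with Atp6v0c-ps2 listed at 0 in each. In DG, untrained replicate 1 had 970 for Atp6v0c and 2147 for Atp6v0c-ps2, and untrained replicate 3 had 3296 and 1093. Trained DG replicates 1, 2 and 3 had Atp6v0c values of 4452, 4586 and 4018, and Atp6v0c-ps2 values of 0, 0 and 267. The pseudogene thus took 24.9% to 68.9% of the sum in the untrained libraries, 0% in 7 of the 9 trained ones, 37.1% in trained CA1 replicate 3 and 6.23% in trained DG replicate 3.

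**Figure D1:**
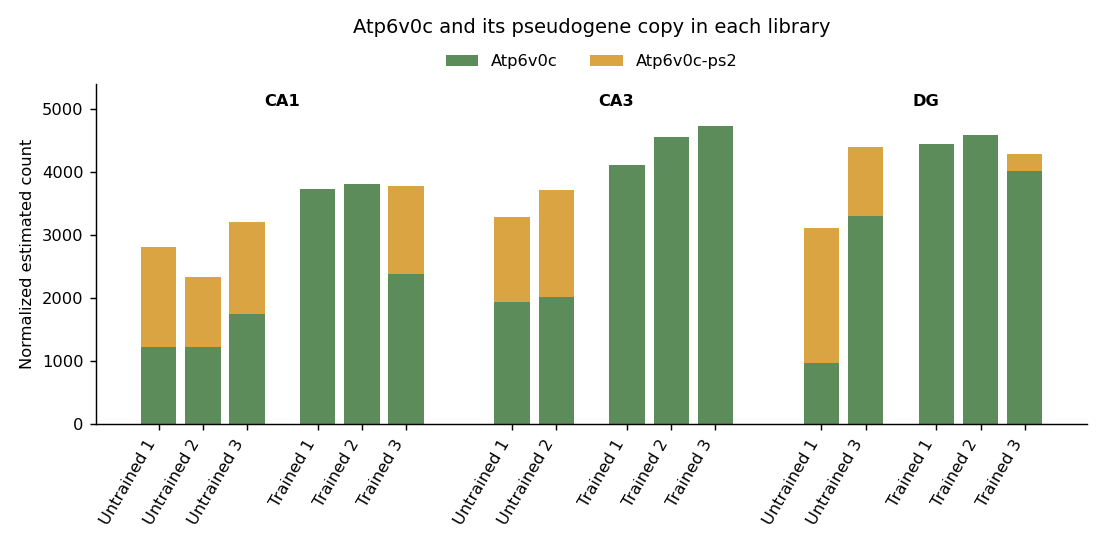
Normalized estimated counts of Atp6v0c (green) and Atp6v0c-ps2 (yellow) stacked in each of the 16 libraries, grouped by subregion and training. The bar height is their sum, and the pseudogene is at 0 in 7 trained libraries and above 0 in all 7 untrained ones.

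The sum of Atp6v0c and Atp6v0c-ps2 varied less between training groups than either value. In CA1 the sums of the untrained libraries were 2814, 2336 and 3212, and those of the trained libraries were 3734, 3810 and 3779. The groups did not overlap, with a log2 fold change of 0.45 (fold 1.37) and a standard error of 0.11 (limma adjusted p = 0.0617) as deposited and of -0.03 with the rescaling to values above 0. The change missed the threshold of 0.05. In CA3 the untrained sums were 3280 and 3720 and the trained ones 4116, 4556 and 4737, a log2 difference of 0.35 that is given without a test, since the CA3 values of the pair were taken as the reason that both genes are in the list. The rule does not name the comparison, and if CA1 or DG values also played a part, the tests of the sum there are not independent of the choice. In DG the untrained sums were 3117 and 4389 and the trained ones 4452, 4586 and 4285, so that trained replicate 3 lay below untrained replicate 3. Over the 3 subregions the log2 difference of the sum was 0.36, given without a test since it holds the CA3 values. The log2 fold change in DG was 0.26 (standard error 0.15, adjusted p = 0.405) as deposited and 0.67 (adjusted p = 8.38e-06) with the rescaling to values above 0.

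Atp6v0c and Atp6v0c-ps2 are given singly without a test, since their own earlier values are taken to have put them in the list. Atp6v0c had a log2 fold change of 1.23 in CA1 and of 1.28 in DG. The DG value rested on the 2 untrained libraries, which differed from each other: it was 0.40 without untrained replicate 1 and 2.16 without untrained replicate 3. Without trained replicate 3, the CA1 value of Atp6v0c was 1.45. The sum in CA1 passed the threshold without untrained replicate 2 (0.33, adjusted p = 0.0019) or without untrained replicate 3 (0.56, adjusted p = 3.03e-05), and missed it without any 1 of the other 4 libraries (adjusted p up to 0.182). The sum in DG was 0.02 without untrained replicate 1 and 0.51 without untrained replicate 3, each time with a lone untrained library, so no test of it is given. Of the 7 libraries with Atp6v0c-ps2 at 0, 4 were among those with many genes at 0 and 3 were not, and 3 libraries with many genes at 0 had the pseudogene above 0. The trained libraries with the pseudogene above 0, replicate 3 of CA1 and of DG, were also those with the highest Ddx3y values among the trained. The values did not follow each other closely. Ddx3y was 101 in trained CA1 replicate 3, with the pseudogene at 1400, and 255 in trained DG replicate 3, with the pseudogene at 267. In trained CA3 replicate 3 Ddx3y was 92.9, and the pseudogene was at 0. No other gene (0 of the rest) was listed at 0 in exactly those 7 libraries. The part of the division of reads, of the libraries with many genes at 0 and of the sex-linked transcripts in these values was not tested. In CA1 and DG neither the many genes at 0 nor the sex-linked transcripts can be told apart from training.

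The 8 single-copy subunits are protein-coding genes on 7 chromosomes of GRCm38. The V0 genes are Atp6v0a1 at chr11:101009452-101063719, Atp6v0b at chr4:117884326-117887333 and Atp6v0d1 at chr8:105524465-105566047. The V1 genes are Atp6v1a at chr16:44085402-44139705, Atp6v1b2 at chr8:69088646-69113711, Atp6v1d at chr12:78840725-78861638, Atp6v1e1 at chr6:120794305-120822793 and Atp6v1h at chr1:5070018-5162529.

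Compared per length, as normalized estimated count per kilobase of the longest annotated transcript, the sum of the pair was the highest level among the subunits. Over the 16 libraries it was 3219 ± 593 (SD), and its lowest library (1975) lay above the highest library of any other subunit. The head subunits Atp6v1b2 (1259 ± 134) and Atp6v1a (1250 ± 98.1) and the stalk subunit Atp6v1e1 (1187 ± 157) followed, and their means differed by less than their SDs. Atp6v0a1 was at 886 ± 97.9, Atp6v0b at 777 ± 83.3 and Atp6v0d1 at 655 ± 53.2 per kilobase. The lowest levels were those of Atp6v1h (359 ± 47.6) and Atp6v1d (332 ± 21.5), whose ranges overlapped. These SDs hold the differences between subregions and training groups as well as the spread within them.

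**Figure D2:**
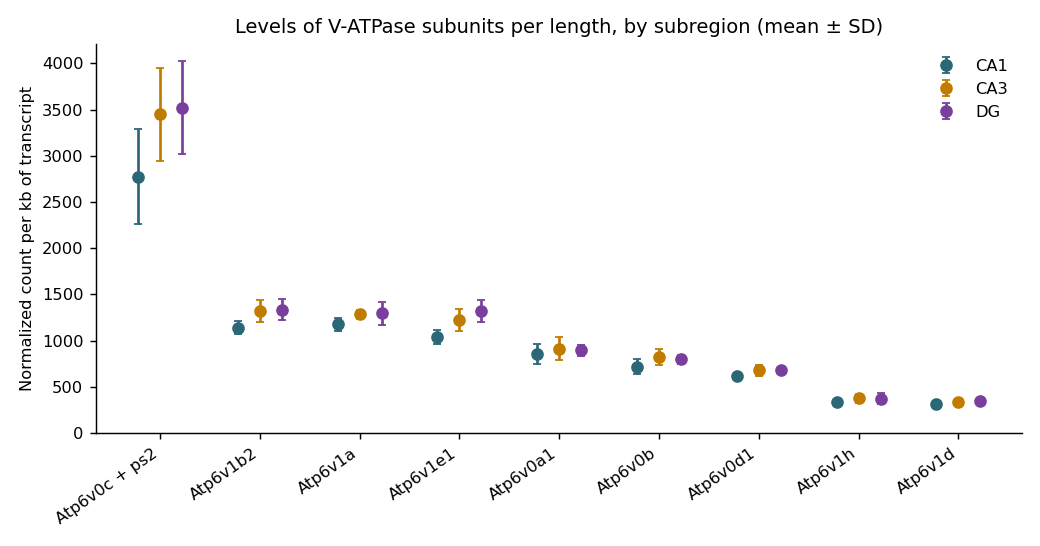
Mean normalized estimated count per kilobase of transcript (± SD over the 6 CA1, 5 CA3 and 5 DG libraries, both training groups together) for the sum of Atp6v0c and Atp6v0c-ps2 and the 8 other subunits. The sum lies at 2773 in CA1 and 3521 in DG, above every other subunit, and Atp6v1h and Atp6v1d lie lowest.

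In the comparison of trained with untrained libraries over the 3 subregions, 5 of the 8 single-copy subunits were higher in trained animals and none (0) was lower, where 10.3% of the 14673 genes tested passed the threshold and 6.28% were higher. The median log2 fold change of the 8 was 0.15, against -0.01 for all genes. With the rescaling to values above 0, none (0) of the 8 passed, and 7 of the 8 lay above the median of all genes under either scaling. The 16 libraries entered as independent, although each animal gave several of them. The genes that rose were Atp6v0a1 (log2 fold change 0.26, limma adjusted p = 0.000518), Atp6v1b2 (0.17, adjusted p = 0.00606), Atp6v1h (0.25, adjusted p = 0.00821), Atp6v0b (0.19, adjusted p = 0.011) and Atp6v1a (0.13, adjusted p = 0.0324). Atp6v0d1 had a log2 fold change of 0.12 (adjusted p = 0.0972), Atp6v1e1 of 0.08 (adjusted p = 0.425) and the shaft subunit Atp6v1d of -0.04 (adjusted p = 0.611). The 8 were chosen with earlier results of these libraries known, so these counts are no independent evidence of a direction. Without all libraries of untrained replicate 1 or of trained replicate 2, 1 subunit passed in each case, where 456 and 554 of all genes passed. Without trained replicate 3, 3 passed, where 1178 of all genes did, against 1517 with all libraries. Over all omissions the log2 fold change was 0.15 to 0.19 for Atp6v1b2, 0.17 to 0.29 for Atp6v1h and 0.16 to 0.24 for Atp6v0b. Atp6v1a missed the threshold without any 1 animal other than untrained replicate 2 (adjusted p = 0.0669 to 0.147). Its log2 fold change was then 0.09 without untrained replicate 3 and 0.12 to 0.14 in the other cases. It also missed the threshold without the CA3 library of untrained replicate 1 (0.13, adjusted p = 0.0646) and after the usual upper-quartile rescaling (0.12, adjusted p = 0.056). Of the 5 neuronal markers Rbfox3, Snap25, Syt1, Map2 and Nefl, 2 were higher over the 3 subregions, Snap25 (0.27) and Nefl (0.23). Of the astrocyte markers Aqp4 (-0.30) and Gja1 (-0.18) were lower, of the CA3 markers Grik4 (0.45) and Bok (0.74) were higher and Coch (-1.14) was lower, and of the granule cell markers Lct (-0.33) was lower. The part of these markers in the differences over the 3 subregions was not tested. With a score of the sex-linked transcripts as a covariate 0 of the 8 passed, with log2 fold changes of 0.22 for Atp6v0a1 (adjusted p = 0.398), 0.28 for Atp6v0b, 0.24 for Atp6v1b2, 0.31 for Atp6v1h and 0.15 for Atp6v1a, and 0 genes passed among all those tested.

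In CA1, Atp6v0a1, the large V0 subunit, was the 1 subunit of 8 that passed the threshold, where 5.23% of the 13588 genes tested passed and 3.53% were higher. Its values were 2980, 3057 and 3131 in the untrained libraries and 3774, 3668 and 3997 in the trained ones, so every trained library was higher. On the log2 scale trained CA1 exceeded untrained CA1 by 0.32 with a standard error of 0.05 (limma adjusted p = 0.000507), and with the rescaling to values above 0 the difference turned to -0.16. All 8 subunits were above 0 in CA1 as deposited and below 0 under that rescaling, while all 8 lay above the median of all genes under both. Of all genes that passed in CA1, 67.5% were higher, 56.8% after the usual upper-quartile rescaling and 0.815% with the rescaling to values above 0, under which 69.4% of 13615 genes passed. The ring subunit Atp6v0b was at 632, 629 and 710 in untrained and at 744, 787 and 819 in trained CA1 (log2 fold change 0.25, adjusted p = 0.0507). The head subunit Atp6v1b2 was at 3069, 2976 and 3096 in untrained and at 3405, 3366 and 3425 in trained CA1 (0.16, adjusted p = 0.053). These 3 and Atp6v1h had every trained library above every untrained one, 4 of 8 subunits against 12.9% of all genes. Without untrained replicate 3, 3 of 8 passed the threshold (Atp6v0a1, Atp6v0b and Atp6v1b2), where 865 of all genes passed against 710 with all libraries. The remaining CA1 log2 fold changes ran from 0.02 (Atp6v1d) to 0.12 (Atp6v1h). The neuronal markers Rbfox3, Snap25, Syt1, Map2 and Nefl moved with these subunits: their sum was 45003 to 45648 in trained and 39114 to 40760 in untrained CA1, and 4 of the 5 were higher by the same test. None of these 5 markers was at 0 in any library. Markers of CA3 pyramidal neurons (Iyd, Grik4, Bok, Coch) summed to 792 to 856 in trained and 472 to 557 in untrained CA1, with Grik4 (log2 fold change 0.56) and Bok (1.04) higher and Coch (-1.50) lower. Choroid plexus markers summed to 305, 308 and 2348 in the trained and 972 to 1139 in the untrained CA1 libraries, so 1 trained library stood apart. Of 5 astrocyte markers, Aqp4 was lower (-0.35, adjusted p = 0.00149). The part of these markers, and of the lower CA1 markers given above, in the CA1 differences was not tested.

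**Figure D3:**
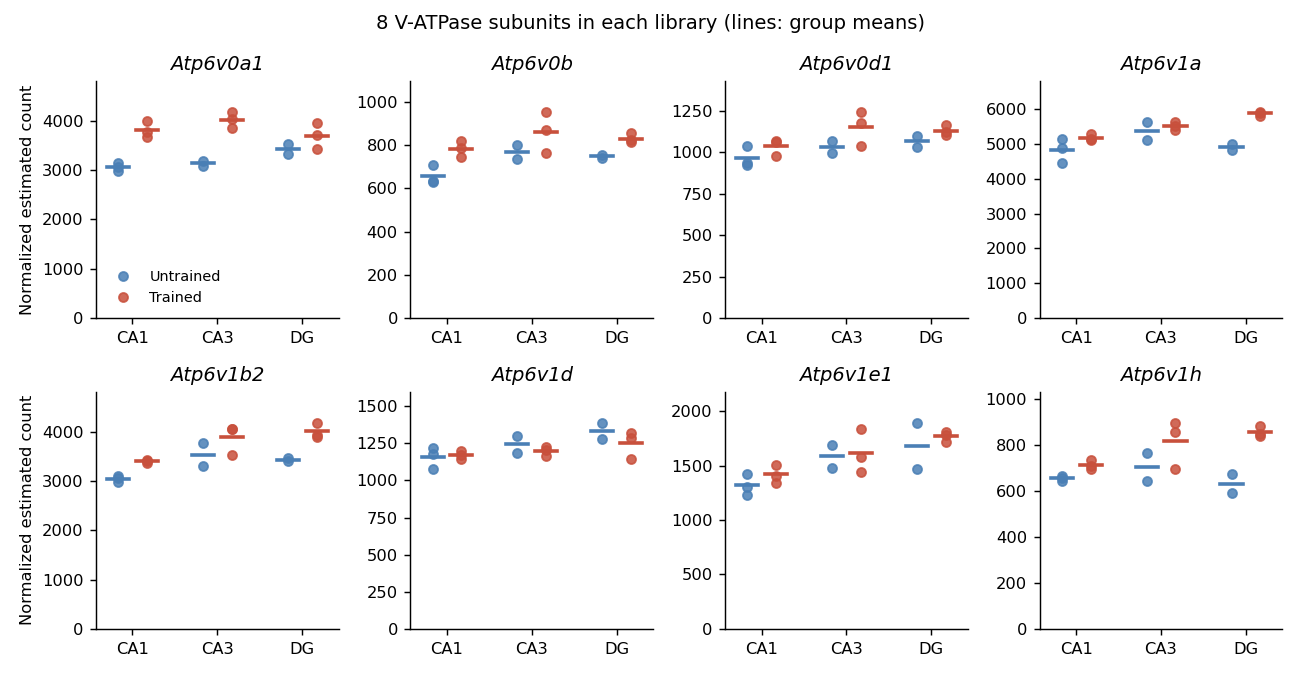
Normalized estimated count of each of the 8 single-copy subunits in every library (points, blue untrained and red trained), by subregion, with group means as lines and axes from 0. As deposited, Atp6v0a1 separates the training groups in CA1 and CA3, with trained values of 3668 to 3997 in CA1, and Atp6v1h, Atp6v1a and Atp6v1b2 separate them in DG.

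In CA3, 0 of the 8 subunits passed the threshold in limma, where 0.852% of the 13848 genes tested passed and 1 of the 8 had an unadjusted p under 0.05. That subunit was Atp6v0a1, at 3180 and 3089 in untrained and at 4026, 4174 and 3850 in trained CA3, a log2 fold change of 0.36 (standard error 0.07, adjusted p = 0.0515). It was also the 1 subunit of 8 whose trained libraries all lay above the untrained ones, against 17.2% of all genes, and it passed without trained replicate 1 (adjusted p = 0.0229) and missed the threshold without any 1 of the other 4 libraries (adjusted p up to 0.324). The untrained replicate 1 library, in which the sex-linked transcripts differ from those of the CA1 library of the same animal, had a value of 3180 and the other untrained library 3089. The other 7 subunits had log2 fold changes between -0.05 (Atp6v1d) and 0.21 (Atp6v1h) in CA3, and 6 of them turned below 0 with the rescaling to values above 0, while 7 of the 8 lay above the median of all genes under both scalings. The neuronal markers Rbfox3, Snap25, Syt1, Map2 and Nefl summed to 46014 to 50531 in trained and 42220 to 45214 in untrained CA3, and 0 of the 5 passed the threshold there. Choroid plexus markers (Ttr, Folr1, Kcnj13, Kl) summed to 230 to 308 in trained and 769 to 1077 in untrained CA3, and Ttr was lower (adjusted p = 7.26e-06). The part of these markers in the CA3 values was not tested.

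In DG, 3 of the 8 subunits were higher in trained animals, where 3.39% of the 13935 genes tested passed and 1.74% were higher. Atp6v1h, the regulatory subunit, was at 589 and 672 in the untrained libraries and at 881, 839 and 846 in the trained ones, a log2 fold change of 0.44 (fold 1.36) with a standard error of 0.08 (limma adjusted p = 0.0109). Atp6v1a, the catalytic head subunit, was at 4994 and 4833 in untrained and at 5889, 5805 and 5911 in trained DG (0.26, standard error 0.05, adjusted p = 0.017). Atp6v1b2 was at 3454 and 3410 in untrained and at 3937, 4180 and 3889 in trained DG (0.22, standard error 0.06, adjusted p = 0.0497). In each of these the groups did not overlap, as in Atp6v0b and Atp6v0d1, 5 of 8 subunits against 17.5% of all genes. Atp6v0a1 overlapped in DG, with 3518 and 3330 in untrained and 3705, 3944 and 3419 in trained libraries (0.11, adjusted p = 0.414). Without any 1 of the 3 trained DG libraries 0 of the 8 passed, where 28 to 101 of all genes passed against 473 with all libraries. The log2 fold change of Atp6v1h was then 0.42 to 0.46 (adjusted p = 0.0544 to 0.0795). Atp6v1b2 missed the threshold without any 1 of the 3 trained DG libraries, at a log2 fold change of 0.19 to 0.24 (adjusted p = 0.123 to 0.18). It was 0.23 without untrained replicate 1 and 0.21 without untrained replicate 3, each time with a lone untrained library. At 0.22, Atp6v1b2 also missed the threshold with a pseudocount of 0.5 (adjusted p = 0.0518), without robust estimation (0.0718) and in 1 fit of all libraries (0.0675). With the rescaling to values above 0, 7 of 8 passed, all higher, as did 42.8% of the 14028 genes tested in that fit, of which 99.8% were higher. Relative to the median of all genes, 7 of 8 lay above it under both scalings. The neuronal markers summed to 46579 to 47484 in trained and 45894 to 48802 in untrained DG, and 0 of the 5 passed the threshold there. The endothelial markers Cldn5, Pecam1, Flt1 and Ly6c1 summed to 313 to 352 in trained and 521 to 613 in untrained DG. All 4 had log2 fold changes below 0, and Flt1 passed (-0.94, adjusted p = 0.00142). Of the 6 granule cell markers, Prox1 was lower (-0.31, adjusted p = 0.00965), and their sums in DG, given above, did not overlap. The part of these markers in the DG differences was not tested.

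**Figure D4:**
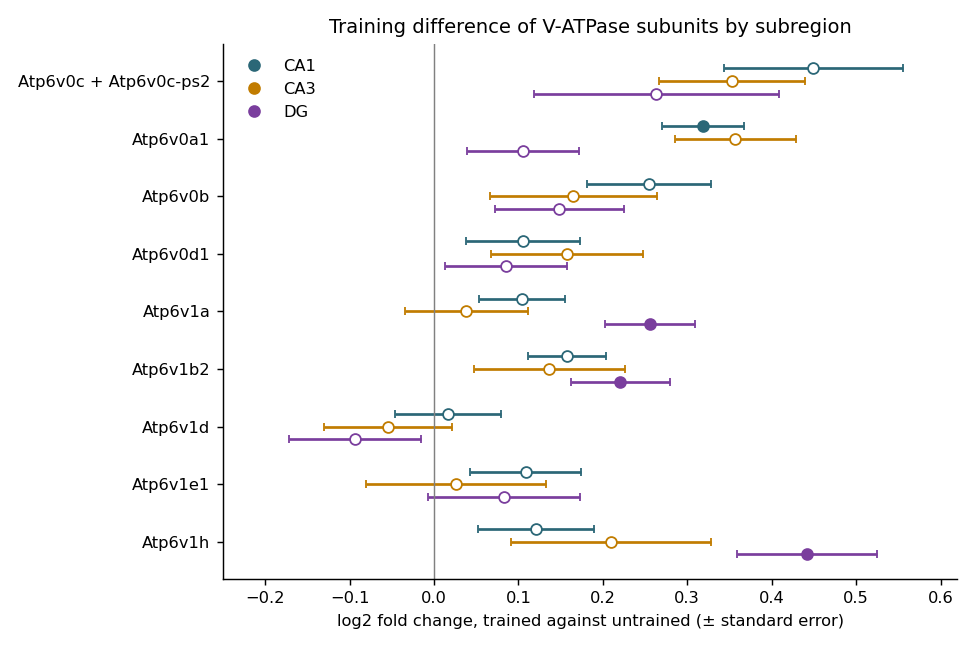
Log2 fold change between trained and untrained libraries (± standard error) in CA1, CA3 and DG for the sum of Atp6v0c and Atp6v0c-ps2 and the 8 single-copy subunits. Filled points have a limma adjusted p under 0.05 with the values as deposited (with the rescaling to values above 0 all 8 CA1 differences lie below 0), and the CA3 value of the sum is shown without a test. Atp6v0a1 in CA1 (0.32) and Atp6v1h (0.44), Atp6v1a (0.26) and Atp6v1b2 (0.22) in DG are filled.

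Atp6v1d, the subunit with the smallest CA1 difference, was at 1176, 1221 and 1077 in untrained and at 1145, 1167 and 1197 in trained CA1. In CA3 it was at 1187 and 1298 and at 1223, 1161 and 1203, and in DG at 1277 and 1388 and at 1284, 1147 and 1319, in the same order. Its training groups overlapped in every subregion.

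The subunits past the threshold thus had different names in CA1 and DG, but no difference between the training effects of a pair of subregions passed the test with the values as deposited. For CA1 against DG, 0 of 8 subunits passed, where 2.75% of all genes did and 2 of the 8 had an unadjusted p under 0.05. The difference of log2 fold changes, CA1 minus DG, was 0.21 for Atp6v0a1 (adjusted p = 0.188), -0.32 for Atp6v1h (adjusted p = 0.173), -0.15 for Atp6v1a (adjusted p = 0.336) and -0.06 for Atp6v1b2 (adjusted p = 0.767). It was 0.19 for the sum of the pair (adjusted p = 0.655). With the rescaling to values above 0, 8 of 8 passed, all below 0, as did 74.2% of the 14952 genes tested in that fit, with Atp6v0a1 at -0.67 and the sum at -0.70. Relative to the median of all genes, 5 of the 8 lay above it under both scalings. For CA1 against CA3 0 of 8 passed (0.0273% of all genes, 0 of the 8 at an unadjusted p under 0.05), and for CA3 against DG 0 of 8 passed (0.164% of all genes, 2 of the 8 unadjusted). With the rescaling to values above 0, CA3 against DG passed in 4 of 8, where 23.7% of all genes did.

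Between subregions, with training groups weighted equally, all 8 single-copy subunits had lower means in CA1 than in CA3 and DG, and few of the differences passed the test (0 with the rescaling to values above 0, under which all 8 kept this direction). Atp6v1b2 was lower in CA1 than in CA3 (log2 difference -0.20, limma adjusted p = 0.0267), 1 of 8 subunits, where 0.988% of all genes passed and 0.266% were lower. Against DG, Atp6v1b2 (-0.20, adjusted p = 0.0117) and the stalk subunit Atp6v1e1 (-0.33, adjusted p = 0.0106) were lower in CA1, 2 of 8 subunits, where 4.05% of all genes passed and 1.91% were lower. Atp6v1e1 ran from 1227 to 1510 with a median of 1375 in CA1, from 1439 to 1835 with a median of 1583 in CA3, and from 1470 to 1894 with a median of 1780 in DG. The log2 difference of the sum of the pair, CA1 minus DG, was -0.33 (adjusted p = 0.0703). Against CA3 it was -0.29, given without a test for the reason stated for its CA3 values. CA3 and DG differed in 0 of 8 subunits (0.00682% of all genes, 0 of the 8 at an unadjusted p under 0.05).

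By the labels, each animal gave a library to several subregions. The CA1 and CA3 libraries of untrained replicate 1 had Xist values of 26.1 and 10588, so that pairing is in doubt there. Deviations of libraries of 1 animal correlated between -0.165 and 0.121. With the animal as a replicate block, Atp6v1e1 was also lower in CA1 than in CA3 (-0.26, limma adjusted p = 0.00761). This made 2 of 8, where 207 of all genes passed against 145 without the block. The sum of the pair passed against DG (-0.29, adjusted p = 0.00465). Its blocked difference from CA3 was -0.36, given without a test. Without all libraries of trained replicate 2 or trained replicate 3, 0 of 8 passed between CA1 and CA3, where 61 and 52 of all genes passed against 145. Atp6v1b2 was then at -0.18 and -0.19. It was at -0.14 without untrained replicate 2, and Atp6v1e1 was at -0.25 without untrained replicate 3. Each of the last 2 cases leaves a lone untrained library in a subregion. Without trained replicate 2, 0 of 8 passed between CA1 and DG, where 113 of all genes passed against 594. Atp6v1b2 was then at -0.18 and Atp6v1e1 at -0.32. Neuronal markers were lower in CA1 than in DG in 2 of 5 cases and than in CA3 in 1 of 5, and their part in these differences was not tested.

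The other genes of the pump were counted from a list of 16 further V-ATPase subunits and accessory proteins, of which 10 had values high enough to be tested. Over the 3 subregions 5 of the 10 were higher, where 6.28% of all genes were, and 0 lower. Among these, Atp6v1g1 (log2 fold change 0.24, limma adjusted p = 0.0157), Atp6v1c1 (0.22, adjusted p = 0.0119), the accessory protein Atp6ap2 (0.22, adjusted p = 0.0202) and the brain form of the stalk subunit, Atp6v1g2 (0.19, adjusted p = 0.0333) had the smallest adjusted p-values. In CA1 it was Atp6v1g2 alone among the 10 (0.32, adjusted p = 0.00122), where 3.53% of all genes were higher. In CA3 0 of 10 passed, where 0.852% of all genes did. In DG 2 of 10 were higher, where 1.74% of all genes were: Atp6v1g1 (0.42, adjusted p = 0.0468) and Atp6ap2 (0.38, adjusted p = 0.0109). As deposited, the training effect on Atp6v1g2 was larger in CA1 than in DG (difference 0.42, limma adjusted p = 0.0229). It was 1 of the 10, where 2.75% of all genes passed. With the rescaling to values above 0, the median of all genes in that comparison shifted by -0.88, and the value of Atp6v1g2 under it is not given here. All values of this paragraph and the next are as deposited. Of 10 genes for assembly and regulation of the pump, such as Dmxl2, Wdr7 and Ncoa7, 0 passed in any training comparison.

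Genes that work with the proton gradient were counted in the same way, against the shares of all genes that were higher (6.28% over the 3 subregions, 3.53% in CA1 and 1.74% in DG). Of 8 vesicular transporters and vesicle proteins tested, Slc17a7, the vesicular glutamate transporter of these neurons, was higher over the 3 subregions (0.27, limma adjusted p = 0.0012) and in CA1 (0.29, adjusted p = 0.00289). Slc32a1, the vesicular GABA transporter, was higher over the 3 subregions (0.35, adjusted p = 0.00489). In DG, the vesicle protein gene Sv2b was higher (0.40, adjusted p = 0.00711) and the glutamate transporter gene Slc17a6 was lower (-1.32, adjusted p = 0.0293), and in CA3 0 of 8 passed. Of 30 lysosomal genes, 4 were higher over the 3 subregions (Psap, Neu1, Laptm4a and Ctsb, with log2 fold changes of 0.13 to 0.24), Psap alone of the 30 in CA1, and 0 in CA3 and DG. The median log2 fold change of the lysosomal genes over the 3 subregions was 0.02.

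Across the 16 libraries most subunits varied together. As a description over libraries that share animals and training groups, the Pearson correlation of the log2 value of a subunit with the mean of the other single-copy subunits was 0.947 for Atp6v1b2, 0.879 for Atp6v0b and 0.872 for Atp6v0d1. The lowest values were 0.536 for Atp6v0a1 and 0.201 for Atp6v1d. For the sum of the pair it was 0.901, for Atp6v0c alone 0.782 and for Atp6v0c-ps2 -0.557. Among 10757 genes, those whose values followed the mean of the 8 subunits closely included Morf4l2 (r = 0.973), Eno1 (0.964), Ap2a2 (0.949) and Nefl (0.945).

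The promoters of the subunits were searched for CACGTG, the core of the element bound by the lysosomal regulator Tfeb and by other bHLH factors, in RefSeq windows around the transcription start (GRCm38.p6). The motif reads the same on both strands. Of 7 members with a window, 3 held it (Atp6v0b, Atp6v0d1 and Atp6v1a), against 8.09% of 27025 genes. The longer CLEAR element of Tfeb, which holds this core in its centre, was found in 0 of the 7, against 0.37% of genes. The stretch of Atp6v0b, the member with 2 matches, is printed with them in capitals. It lies on the minus strand at chr4:117887330-117887389, just before the start:
Atp6v0b: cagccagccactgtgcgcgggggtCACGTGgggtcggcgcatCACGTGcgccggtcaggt
The match of Atp6v0d1 spans the start and is not printed. That of Atp6v1a lies on the minus strand within chr16:44139358-44139417, before the RefSeq start but inside the GENCODE span of the gene given above:
Atp6v1a: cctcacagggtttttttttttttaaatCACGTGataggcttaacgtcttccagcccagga
Of these 3 genes, Atp6v0b and Atp6v1a were higher and Atp6v0d1 did not pass over the 3 subregions. A match is a run of letters in the window and not a measured site.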

How the data were processed

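The authors used STAR for alignment and Salmon for quantification, and the labels name the build GRCm38, bcl2fastq 2.20, FastQC, Trim Galore, STAR and DESeq2. The deposited signal holds fractional, normalized estimated counts. Libraries followed rRNA depletion, although the molecule label reads polyA RNA. How the deposited values were normalized is not given in the sources used here. A count test was planned if the files held counts. The values did not resolve into whole reads. Tests were therefore made with limma (version 3.58.1, R version 4.3.3) after the transform log2(value + 2), using trend and robust estimation and Benjamini-Hochberg adjustment over all genes tested at a threshold of 0.05. All fold changes are on that scale, which understates changes of low genes. Genes entered with a value of at least 10 in at least 3 libraries (CA1) or 2 libraries (other fits). Training was compared within each subregion and over all libraries with subregion as a term, and subregions and differences of effects in a fit of 6 group means. For the sum of the pair, 1 row replaced both genes. Atp6v0c and Atp6v0c-ps2 singly, and their sum in CA3 and in the combined comparison, are given without a test. A comparison left with 1 library in a group takes its spread from the other group. Libraries of a group come from separate animals.

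The members and lists were chosen with earlier results of these data known. All members are named, and of the other lists up to 4 genes past the threshold with the smallest adjusted p, and the genes most like the members in their values, of which 1 is not reported here. Libraries of 1 animal carry its number by the labels. Their deviations from the group means correlated between -0.165 and 0.121 (14 pairs). The method was tested on simulated data. Positions, transcript lengths and sequences came from GENCODE and RefSeq tables of GRCm38. Spatial data were not analysed here. Alternatives were 2 rescalings, pseudocounts of 0.5 and 8, omitting the filter, requiring 10 in all libraries, omitting robust estimation, 1 fit of 16 libraries, the replicate block, a sex-linked covariate, marking libraries rich in genes at 0, and leaving out each library or animal. The upper-quartile rescaling was first computed from the values above 0 of each library. After its values were seen it was replaced by the usual definition over genes above 0 in any library, and the first version is kept as an added alternative.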

Additional observations from a re-analysis of the deposited data

Results flagged for a closer look

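Among the 9 trained libraries, CA1 replicate 3 stood apart in Atp6v0c, with a normalized estimated count of 2379 where the others lay between 3734 and 4737, and in Atp6v0c-ps2, with 1400 where the others lay between 0 and 267. The gap to the nearest library passed Dixon's limit for an outlier in both. Chance flags about 1 in 20 groups of independent values, and 22 groups were checked. These 9 libraries come from 3 subregions of 3 animals and are not independent, so the flag is a description and no test. Because reads are divided between the pair, the flags of Atp6v0c and Atp6v0c-ps2 are not separate. In the sum of the pair the same library (3779) lay between the other trained CA1 libraries.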

How the results depend on the processing

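Depth is unknown, so counting error could not be given, and groups of 2 or 3 libraries limit every test. Rescaled by the upper quartile of each library's values above 0, an alternative added as described in the processing and kept after its values were seen, the median log2 fold change of all genes shifted by -0.47 in CA1, -0.23 in CA3, 0.40 in DG and -0.13 over the 3 subregions. All 8 subunits were then below 0 in CA1, 6 of them past the threshold (69.4% of all genes were), at -0.16 (Atp6v0a1), -0.22 (Atp6v0b), -0.37 (Atp6v0d1), -0.37 (Atp6v1a), -0.32 (Atp6v1b2), -0.46 (Atp6v1d), -0.37 (Atp6v1e1) and -0.36 (Atp6v1h), with the sum at -0.0295. Relative to the shifted median all 8 stayed above it, by 0.01 to 0.31. In CA3 the values turned to -0.0617 (Atp6v0b), -0.0692 (Atp6v0d1), -0.19 (Atp6v1a), -0.0907 (Atp6v1b2), -0.20 (Atp6v1e1) and -0.0168 (Atp6v1h), with the sum at 0.13, and in DG Atp6v1d turned to 0.31, 7 of 8 passed (42.8% of all genes did) and the sum rose to 0.67. Over the 3 subregions 0 passed and Atp6v0d1 (-0.0127) and Atp6v1e1 (-0.053) turned, and 0 passed between CA1 and CA3 or DG. The effect difference CA1 minus DG passed in 8 (74.2% of all genes), with Atp6v0a1 at -0.67 and the sum at -0.70, and CA3 minus DG in 4 (23.7%). With the usual upper quartile, the share of CA1 calls that were higher was 56.8% against 67.5%, Atp6v1d turned to -0.00814 in CA1 and the sum passed (0.42).

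The count in CA1, where 710 of all genes passed in the main fit, was 2 with a pseudocount of 8 (761 of all genes) or with 10 required in all libraries (733). It was 3 without a filter (1877 of all genes), and 1 to 3 leaving out a library, with 3 without untrained replicate 3 (865 of all genes). In CA3, where 118 of all genes passed in the main fit, it was 1 in 5 other fits, with more calls of all genes in each. These were the fits without a filter (143 of all genes), with 10 in every library (127), of all libraries in 1 fit (413), with the replicate block (1160) and without trained replicate 1 (680). It was 0 without trained replicate 2 or 3. In DG it was 0 without any 1 trained library, and over the 3 subregions 0 with the sex-linked covariate and 1 to 5 leaving out an animal. Between CA1 and CA3 it was 2 with the replicate block and 0 without trained replicate 2 or 3, and between CA1 and DG 0 without trained replicate 2. The calls of all genes in these fits are given with the results above. The CA1 sum (0.45) passed without a filter, with 10 in every library, without robust estimation and with the replicate block (adjusted p = 0.00954 to 0.0465), and was 0.33 to 0.56 leaving out a library. Likewise the DG sum was 0.02 to 0.51 and the CA3 sum 0.26 to 0.44.

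Atp6v1d turned without untrained replicate 3 (-0.0347) and trained replicate 3 (-0.00012) in CA1, without untrained replicate 2 (0.00981) in CA3, and with the sex-linked covariate (0.0843) over the 3 subregions. Atp6v1e1 turned in CA3 with the replicate block (-0.0679), without untrained replicate 1 (-0.0719) or trained replicate 3 (-0.0679), in DG without untrained replicate 1 (-0.10, against 0.27 and a pass without untrained replicate 3, each with a lone untrained library), and over the 3 subregions without untrained replicate 1 (-0.0215). Atp6v1a turned in CA3 without untrained replicate 1 (-0.0313). With the replicate block Atp6v0a1 passed in CA3 (adjusted p = 3.06e-05) and Atp6v1b2 did not in DG (0.16). Trained and untrained libraries of a number share only the number, with correlations of -0.158 to 0.0639. The cause of these changes was not tested.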
